A study of Arabidopsis thaliana with 6 samples.

Results

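The basic leucine zipper (bZIP) genes of Arabidopsis thaliana were described in leaves of the essp3 mutant and of wild type. A gene was taken as a bZIP gene when the deposited title of its probe set contained that word, with 1 locus (AT4G35900) left out by the rule. The rule uses no measured value. It gave 56 genes, each on 1 probe set, of 22746 probe sets on the Affymetrix ATH1 array once control probe sets were set aside. A published grouping of the family by sequence, in lettered clades, covers 50 of the 56. The other 6 are bZIP genes by title only. For AT1G53490 the current RefSeq name is HEI10, a protein of meiotic crossover formation, so its title and its name disagree.

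The essp3 group is a line with a lesion in BRAHMA, an ATPase that remodels nucleosomes as part of a SWI/SNF complex; the labels write its allele in several ways and do not give the lesion. The wild-type group carries ProβCG:GUS, a β-glucuronidase reporter under a seed storage protein promoter (β-conglycinin); the labels name this reporter for wild type and do not say whether essp3 has it. Both groups were leaves of 2-week-old seedlings from plates with MS medium and sucrose in long days, with 3 arrays of each genotype labelled as biological replicates. Nothing says how many plants went into a sample. The array names in the deposited table's key carry 1 code on all essp3 arrays and another on all wild-type arrays. The key does not say what the code marks, so that whatever it marks and genotype cannot be told apart in any result here.

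bZIP factors bind DNA as dimers: the basic region contacts sites with an ACGT core, and the leucine zipper selects the partner. Clade C and the S1 branch of clade S form heterodimers with each other and act downstream of the SnRK1 kinase when carbon or energy is short, and translation of S1 messenger RNAs is repressed by sucrose through an upstream open reading frame. The TGA factors of clade D work with the salicylic acid co-regulators NPR1, NPR3 and NPR4. HY5 of clade H promotes light-regulated development and is degraded through COP1 in the dark. Clade A factors act in abscisic acid responses, clades B and K in the response to unfolded proteins of the endoplasmic reticulum, and clade F in zinc deficiency. Many of these factors are controlled after transcription, and the arrays measured transcripts only.

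Values are signal intensities on a linear scale that averaged 1000 over all probe sets of an array, and they are compared between genotypes within a probe set, never between probe sets. Between 12807 and 13666 probe sets had a Present detection call on an essp3 array and between 13094 and 13706 on a wild-type array. Of the 56 bZIP genes, 32 to 36 were Present on an essp3 array and 34 to 37 on a wild-type array. All 5 measured leaf mesophyll markers were Present on all 6 arrays and none was called. Their summed signals ran from 257551 to 261284 in essp3 and from 247534 to 273694 in wild type. Within the sum, CA1 lay above wild type (39412 ± 3478 in essp3, 32979 ± 1047 in wild type). LHCB3 lay below (50130 ± 812 in essp3, 54947 ± 4562 in wild type), and the other 3 overlapped. None of 5 seed markers had a Present call, nor did 5 of 6 meristem and flower markers; the exception was PI, whose groups overlapped. Of 5 root markers, 3 were Present on no array and PYK10 was Present on all. The signals of all 5 summed to 2461 to 2750 in essp3 and 2977 to 3469 in wild type. Most of that sum was PYK10 (2444 ± 169 in essp3, 2986 ± 279 in wild type), which was not called, so the sum describes mainly this gene. As whole leaves were sampled, fewer cells of a type and less RNA per cell cannot be told apart.

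A gene was tested when it was Present on at least 3 of the 6 arrays, and was called when its adjusted p in limma, over all tested probe sets, was under 0.05. By this rule 36 of the 56 bZIP genes were tested, and 30 of these were Present on all 6 arrays. Of the 36, 7 were called (19.4%), against 28.4% of all 13626 tested probe sets. In essp3, bZIP11 and bZIP2 were higher (5.56% of the 36, against 14.4% of all), and bZIP1, bZIP3, bZIP9, bZIP61 and TGA1 were lower (13.9%, against 13.9% of all). The share called in either direction was thus not above that of the whole array. The count of lower genes was 3 without essp3 replicate 1, essp3 replicate 2 or wild-type replicate 2, and 2 without wild-type replicate 3. bZIP3 met the detection filter through its 3 Present calls in wild type alone, so the filter favoured a lower value in essp3, and TGA1 had 1 Present call in essp3. Among the 30 bZIP genes Present on every array 5 were called, against 29.8% of all such probe sets.

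The direction of the log2 fold changes leaned downward. They ran from -1.80 to 0.90, with 12 above 0 and 24 below, and their median was -0.16 against -0.01 over all tested probe sets. The groups of arrays did not overlap for 15 genes (41.7%, against 42.7% of all). The essp3 arrays lay entirely above the wild-type arrays for 4 of the 36 genes (11.1%, against 21.1% of all) and entirely below for 11 (30.6%, against 21.6% of all). Only TGA1 and bZIP3 were called and changed at least 2-fold, a class that held 6.94% of all tested probe sets; neither was Present on all essp3 arrays. The median size of a change, whatever its sign, was 0.273 for the bZIP genes and 0.314 for all, and the median standard error (SE) was 0.183 and 0.176.

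**Figure D1:**
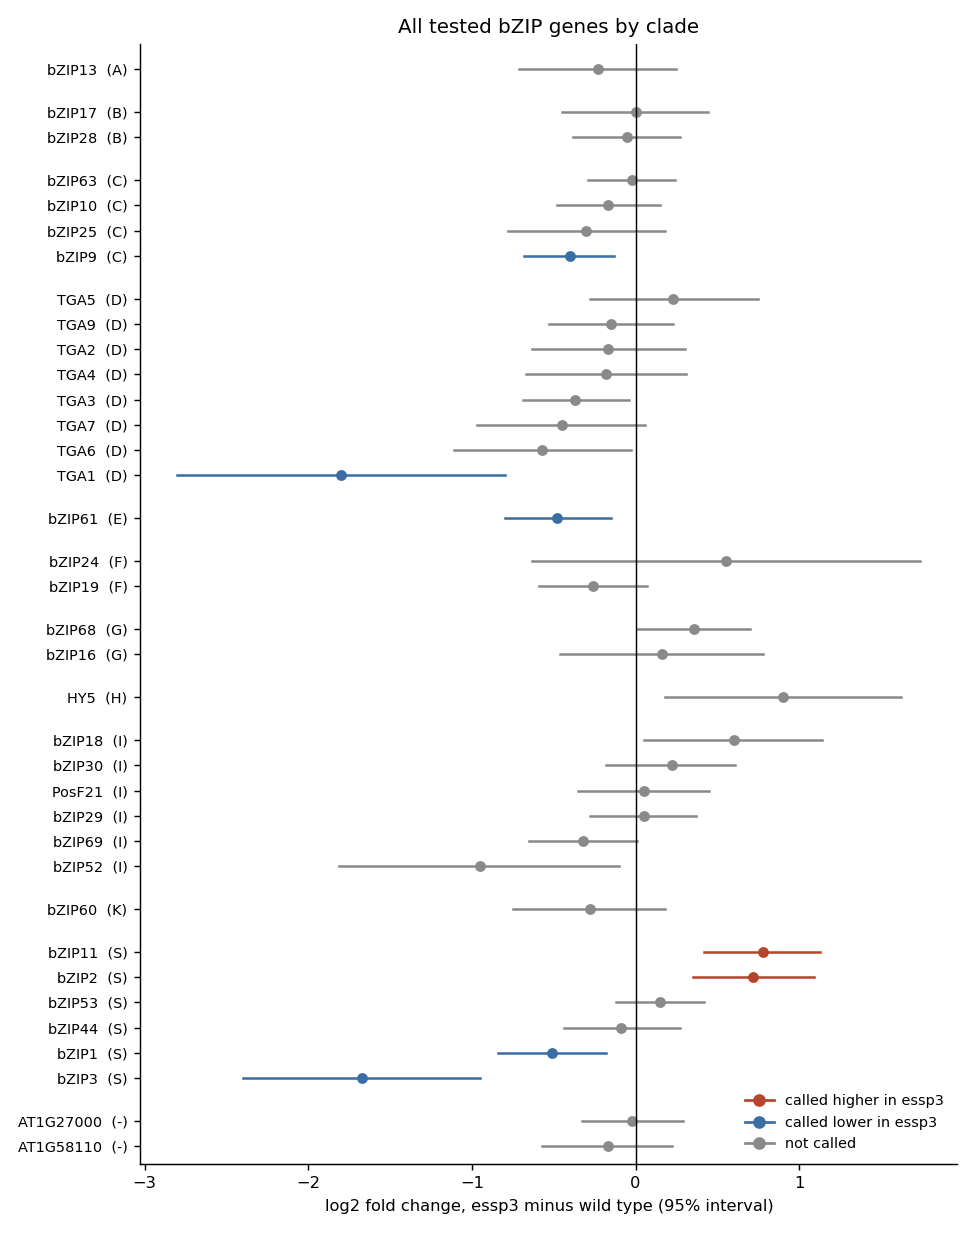
Log2 fold change, essp3 minus wild type, of each of the 36 tested bZIP genes, grouped by clade (letter in brackets, a dash for none); bars are per-gene 95% intervals from limma, not adjusted for the number of genes. TGA1 (-1.80) and bZIP3 (-1.67) are plotted farthest below 0, but most of the TGA1 signals and all of the bZIP3 signals in essp3 were called Absent, so their places are uncertain; bZIP11 (0.78) and bZIP2 (0.72) are called higher, and HY5 (0.90) lies farthest above 0 without passing the adjusted threshold.

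Within the S1 branch the changes ran in both directions. All 5 S1 genes were Present on all 6 arrays. Of these, 2 were higher in essp3, 1 was lower and 2 were not called, beside 29.8% called among all probe sets Present on all 6 arrays. With only 5 genes, these counts are a description and not a result about the branch. bZIP11 (AT4G34590), a regulator of amino acid and trehalose metabolism whose translation is repressed by sucrose, gave 746, 748 and 611 on the essp3 arrays against 459, 412 and 359 on the wild-type arrays. Its groups did not overlap: the lowest essp3 signal lay above the highest of wild type. It was 1.71-fold higher in essp3 (702 ± 78.3 against 410 ± 49.9, mean ± SD, n = 3 arrays each), a log2 fold change of 0.78 (SE 0.16, limma adjusted p = 0.00321). This call held under all 16 alternative settings, with a highest adjusted p of 0.0476.

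bZIP2 (AT2G18160), a close S1 relative of bZIP11 in the same dimer network, gave 3830, 4465 and 5208 in essp3 against 3592, 2578 and 2153 in wild type. The groups did not overlap, though essp3 replicate 1 and wild-type replicate 1 lay close together. The means were 4501 ± 690 in essp3 and 2774 ± 739 in wild type, 1.65-fold higher in essp3 (log2 fold change 0.72, SE 0.17, limma adjusted p = 0.00723). An unmoderated test on the linear signals did not call it (adjusted p = 0.137); the lowest of its 16 alternatives was 0.000378.

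bZIP1 (AT5G49450), an S1 factor that rises in carbon starvation and activates genes of amino acid breakdown, went the other way. It gave 2902, 3103 and 2350 in essp3 against 3156, 4503 and 4307 in wild type, where replicate 1 lay just above the highest essp3 array. It was 1.42-fold lower in essp3 (2785 ± 390 against 3989 ± 728, log2 fold change -0.51, SE 0.15, limma adjusted p = 0.024). The call was lost without essp3 replicate 3 (log2 fold change -0.39, adjusted p = 0.1), without wild-type replicate 2 (-0.41, adjusted p = 0.107) and without wild-type replicate 3 (-0.45, adjusted p = 0.0741). It was also lost in the fit without a trend (adjusted p = 0.0879) and in the unmoderated test (0.178), 5 of 16 alternatives in all.

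The remaining S1 genes were not called. bZIP53, which dimerises with clade C factors to activate seed maturation and proline dehydrogenase genes, averaged 3328 ± 302 in essp3 and 2998 ± 255 in wild type, with a log2 fold change of 0.15 (95% interval -0.12 to 0.42, limma adjusted p = 0.403). bZIP44 averaged 619 ± 105 in essp3 and 654 ± 74.5 in wild type, with a log2 fold change of -0.09 (interval -0.44 to 0.27, adjusted p = 0.74). The arrays of the genotypes overlapped for each gene. Within an array, the log2 ratio of bZIP11 over bZIP1 was -1.96, -2.05 and -1.94 in essp3, against -2.78, -3.45 and -3.59 in wild type. The difference of 1.29 is a description only: the pair was chosen because its calls were opposite, and the ratio does not rank the genes, since probe sets differ in sensitivity.

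Clade C, the dimer partners of S1, had 4 genes, all Present on all 6 arrays, and 1 was called lower, beside 13.9% of all tested probe sets. bZIP9 (AT5G24800), a factor studied in vascular tissue, gave 1890, 1781 and 2267 in essp3 against 2576, 2601 and 2628 in wild type. All 3 essp3 arrays lay below a tight group of wild-type arrays. The gene was 1.32-fold lower in essp3 (1979 ± 255 against 2602 ± 25.6, log2 fold change -0.40, SE 0.13, limma adjusted p = 0.031), and its probe set carries a suffix that marks probes shared with another transcript. The call was lost in 6 of 16 alternatives, among them the fits without essp3 replicate 1 (adjusted p = 0.0897), essp3 replicate 2 (0.141), wild-type replicate 2 (0.0793) and wild-type replicate 3 (0.0618).

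For the other clade C genes the groups overlapped. bZIP63, which SnRK1 phosphorylates in the starvation response, averaged 3313 ± 129 in essp3 and 3379 ± 385 in wild type (log2 fold change -0.02, 95% interval -0.29 to 0.24, limma adjusted p = 0.912). bZIP10, which also acts in defence, averaged 903 ± 62.4 in essp3 and 1018 ± 142 in wild type (-0.17, adjusted p = 0.434). bZIP25, a seed maturation factor, gave 496, 555 and 1031 in essp3 against 802, 788 and 833 in wild type, so that essp3 replicate 3 lay above every wild-type array and the other essp3 arrays below. Without that array bZIP25 passed the threshold (log2 fold change -0.62, adjusted p = 0.0142); with it the change was -0.30 (adjusted p = 0.353).

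Most tested genes on a list of low-energy responses were lower. Of 20 genes on the list, 19 were tested, 2 were higher and 11 were lower in essp3, with a median log2 fold change of -0.64, beside -0.01 over all tested probe sets. Higher genes made up 10.5% and lower genes 57.9% of the list, beside 14.4% and 13.9% of all tested probe sets. This list, like the other pathway lists, was chosen with earlier results of these data known, so its shares are a description only. With any array but wild-type replicate 3 left out, 1 was higher. ASN1, the dark-induced asparagine synthetase that bZIP11 and bZIP1 are known to activate, averaged 3897 ± 228 in essp3 and 12330 ± 1205 in wild type (log2 fold change -1.66, limma adjusted p = 4.42e-07). BCAT2, an enzyme of branched-chain amino acid breakdown and a known bZIP1 target, averaged 259 ± 45.1 in essp3 and 2153 ± 886 in wild type (-2.98, adjusted p = 2.13e-06). SEN1, a dark-induced marker of SnRK1 activity, averaged 14050 ± 834 in essp3 and 39405 ± 6531 in wild type (-1.48, adjusted p = 2.71e-06). MCCA, of leucine breakdown, averaged 1746 ± 83.6 in essp3 and 4983 ± 798 in wild type (-1.50, adjusted p = 4.76e-06).

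These lower transcripts stood beside both a higher bZIP11 and a lower bZIP1. KIN10, a catalytic subunit of SnRK1, was also lower (628 ± 152 in essp3, 1031 ± 82.8 in wild type, log2 fold change -0.74, limma adjusted p = 0.00759). Its call was lost in the unmoderated test (adjusted p = 0.0801). KIN11, another catalytic subunit on the list, was not called and its groups overlapped (795 ± 122 in essp3, 829 ± 174 in wild type, -0.05, adjusted p = 0.871). PRODH1, the proline dehydrogenase that S1 and C factors activate, was higher (5088 ± 444 in essp3, 3709 ± 780 in wild type, 0.47, adjusted p = 0.028), a call that 6 of 16 alternatives lost. KIN10, KIN11 and PRODH1 were named after their values were seen.

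Outside S1, clade S was mostly undetected, and 1 of its 10 genes there was tested. This was bZIP3 (AT5G15830), with signals of 72.6, 77.7 and 71.1 in essp3 against 172, 348 and 216 in wild type. It was called Absent on every essp3 array and Present on every wild-type array, and so its call (limma adjusted p = 0.00238) is given as a description. From mean log2 signals it was at least 3.19-fold lower in essp3 (73.8 ± 3.45 against 246 ± 91.5); the gene's own essp3 signals set that value, so it is not a strict limit, and the log2 fold change ran from -1.90 to -1.39 with an array left out. The unmoderated test did not call it (adjusted p = 0.117); the lowest of its 15 alternatives was 0.000796.

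**Figure D2:**
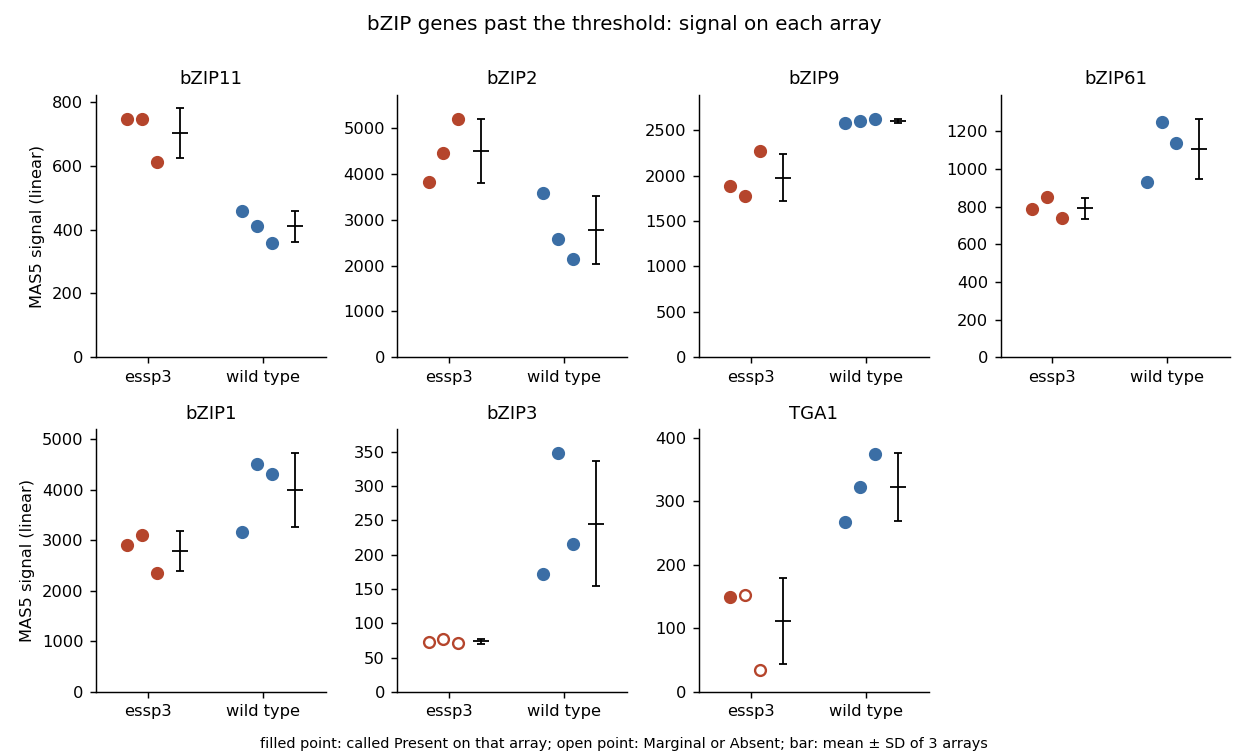
Signal on each array for the 7 called bZIP genes, essp3 left and wild type right in each panel; filled points are Present calls, open points are not, and bars are mean ± SD of 3 arrays on a linear axis from 0. The genotypes do not overlap in any panel; bZIP3 has no Present call in essp3, and TGA1 has 1 there.

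In clade D, the TGA factors, 8 of 9 genes were tested and 1 was called, beside 28.4% of all tested probe sets. TGA1 (AT5G65210), which with TGA4 acts in basal defence and in nitrate responses, gave 149, 153 and 33.7 in essp3 against 268, 323 and 375 in wild type. It was Present on essp3 replicate 1 only and on all wild-type arrays, and the groups did not overlap. TGA1 was 3.48-fold lower by fitted change (112 ± 67.7 in essp3 against 322 ± 53.6 in wild type, log2 fold change -1.80, SE 0.46, limma adjusted p = 0.0107). The size rests in part on essp3 replicate 3: without it the log2 fold change was -1.08, still past the threshold, and the unmoderated test did not call the gene (adjusted p = 0.0745, the highest of 15 alternatives, which began at 0.00516).

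TGA4, the closest relative of TGA1, gave 242, 189 and 325 in essp3 against 270, 299 and 268 in wild type, with essp3 arrays on both sides of wild type. Its log2 fold change was -0.18 (95% interval -0.67 to 0.31, limma adjusted p = 0.597). Within an array the log2 ratio of TGA1 over TGA4 was -0.70, -0.31 and -3.27 in essp3, against -0.01, 0.11 and 0.48 in wild type, a difference of -1.62 that was chosen after its values were seen and was not tested.

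For TGA3, TGA6 and TGA7 the essp3 arrays also lay below all wild-type arrays, but none passed the threshold. With TGA1 these were 4 of the 8 tested TGA genes, beside 21.6% of all tested probe sets. TGA3, a defence factor, gave 1050, 1003 and 1111 in essp3 against 1422, 1111 and 1589 in wild type; the rounded signals of essp3 replicate 3 and wild-type replicate 2 are equal. Its log2 fold change was -0.37 (limma adjusted p = 0.0872), and -0.51 (adjusted p = 0.0327) without wild-type replicate 2, the only alternative that took it past the threshold. TGA6, one of the TGA2, TGA5 and TGA6 group needed for systemic acquired resistance, gave 159, 155 and 147 in essp3 against 194, 211 and 291 in wild type (-0.57, adjusted p = 0.108). Its signal on essp3 replicate 3 was called Absent. TGA7 gave 155, 146 and 164 in essp3 against 201, 205 and 233 in wild type (-0.45, adjusted p = 0.179), and passed only in the fit without an intensity trend (adjusted p = 0.0458).

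For TGA2, TGA5 and TGA9 the groups overlapped. TGA2 averaged 285 ± 67.3 in essp3 and 316 ± 45.3 in wild type (log2 fold change -0.17, limma adjusted p = 0.605). TGA5 averaged 383 ± 64.8 in essp3 and 337 ± 123 in wild type (0.23, adjusted p = 0.506), the only TGA gene with a change above 0. TGA9, known for its role in anther development, averaged 365 ± 14.5 in essp3 and 409 ± 66 in wild type (-0.15, adjusted p = 0.56). Over the 8 genes the median log2 fold change was -0.27.

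**Figure D3:**
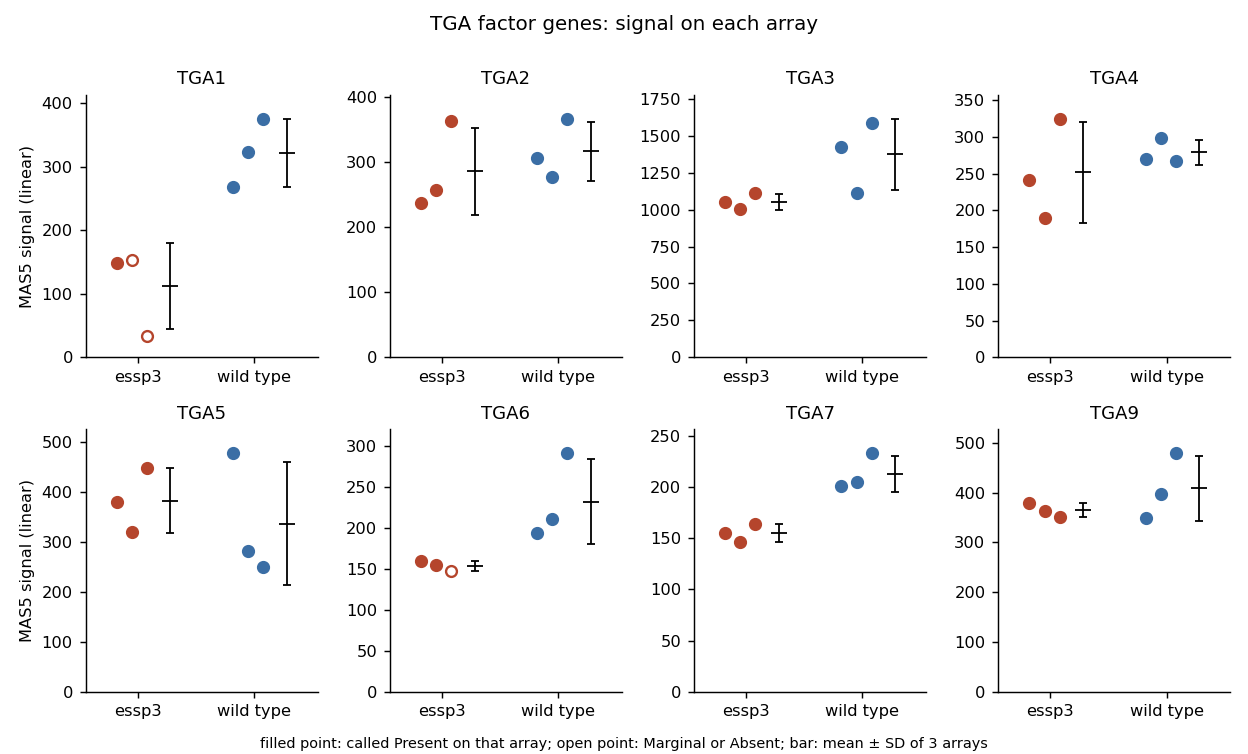
Signal of the 8 tested TGA genes on each array, essp3 left and wild type right in each panel; filled points are Present calls, open points are not, bars are mean ± SD of 3 arrays, and each linear axis starts at 0. TGA1 is the only gene called, beside 28.4% of all tested probe sets. For TGA3, TGA6 and TGA7 the groups also separate, with limma adjusted p of 0.0872, 0.108 and 0.179. Among all tested probe sets, 21.6% had essp3 entirely below wild type.

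Of 21 genes listed as TGA partners and targets, 20 were on the array and 10 were tested; 2 were higher and 3 lower in essp3, 20% and 30% of the list beside 14.4% and 13.9% of all tested probe sets. Without essp3 replicate 2, essp3 replicate 3 or wild-type replicate 2, 1 was higher. CYP81D11, a cytochrome P450 of detoxification that TGA factors activate, averaged 4772 ± 269 in essp3 and 385 ± 99.3 in wild type (log2 fold change 3.67, limma adjusted p = 2.06e-08). NIMIN3, a protein that binds NPR1, averaged 425 ± 68.4 in essp3 and 900 ± 94 in wild type (-1.09, adjusted p = 0.000307). The salicylic acid receptor NPR3 averaged 539 ± 111 in essp3 and 976 ± 261 in wild type (-0.84, adjusted p = 0.00874). The NPR3 call was lost in the unmoderated test (adjusted p = 0.163). Named after their values were seen, NPR1 was not called (687 ± 54 in essp3, 835 ± 142 in wild type, adjusted p = 0.227), nor was NPR4 (634 ± 35.2 in essp3, 574 ± 43.4 in wild type, adjusted p = 0.503).

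The classical defence gene PR1 was lower (227 ± 91.5 in essp3, 533 ± 260 in wild type, log2 fold change -1.22, limma adjusted p = 0.0163). That call was lost in 4 of 15 alternatives. These were the fits without essp3 replicate 1 (adjusted p = 0.0718), without wild-type replicate 3 (0.0745) and without a trend (0.0696), and the unmoderated test (0.268). PR5, also on the list of TGA partners and targets, went the other way and was higher. It averaged 212 ± 28.8 in essp3 and 110 ± 30.3 in wild type (0.97, limma adjusted p = 0.0281), and was named after its values were seen. The PR5 call was lost without essp3 replicate 2, without essp3 replicate 3 and without wild-type replicate 2. It was also lost with no detection filter and in the unmoderated test.

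HY5 (AT5G11260) gave 248, 169 and 185 in essp3, where it was Present on all arrays, against 162, 93.7 and 78.4 in wild type, where it was Present on replicate 1 only. The groups did not overlap, but the lowest essp3 array and the highest wild-type array were close. The means were 201 ± 42.1 in essp3 and 111 ± 44.5 in wild type, with a log2 fold change of 0.90 (SE 0.34, 95% interval 0.18 to 1.62) and a limma adjusted p of 0.0606, which misses the threshold. It passed without wild-type replicate 1 (1.21, adjusted p = 0.0208), and array weights also took it past the threshold (0.86, adjusted p = 0.0494); over its 15 alternatives the adjusted p ran up to 0.214.

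Of 22 genes of the HY5 light pathway, 21 were on the array and 17 were tested; 9 were higher and 2 lower in essp3, with a median log2 fold change of 0.49 beside -0.01 over all tested probe sets. Higher genes made up 52.9% and lower genes 11.8% of the list, beside 14.4% and 13.9% of all. As this list too was chosen with earlier results of these data known, the shares are a description only. Without essp3 replicate 1, 5 were higher; without essp3 replicate 2 or wild-type replicate 2, 1 was lower. CHS, chalcone synthase of flavonoid synthesis and a direct HY5 target, averaged 2115 ± 137 in essp3 and 349 ± 71 in wild type (log2 fold change 2.62, limma adjusted p = 1.95e-07). BBX25, a B-box protein that interacts with HY5, averaged 2254 ± 225 in essp3 and 491 ± 237 in wild type (2.29, adjusted p = 1.74e-05). RUP2, which inactivates the UV-B receptor, averaged 576 ± 125 in essp3 and 170 ± 5.36 in wild type (1.73, adjusted p = 4.37e-05).

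SPA4, a partner of COP1, averaged 655 ± 102 in essp3 and 293 ± 55.1 in wild type (log2 fold change 1.17, limma adjusted p = 0.000519). COP1 itself, named after its values were seen, averaged 1131 ± 167 in essp3 and 802 ± 38.1 in wild type (0.49, adjusted p = 0.0237), and 6 of 16 alternatives lost the call. The 2 lower genes of the list were BBX22 and NIA2, named after their values were seen. BBX22 averaged 2246 ± 221 in essp3 and 3654 ± 113 in wild type (-0.71, adjusted p = 0.00077). NIA2 averaged 11826 ± 834 in essp3 and 15163 ± 512 in wild type (-0.36, adjusted p = 0.0197).

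Clade G binds G-box promoter elements and shares light-regulated targets with HY5. Its 2 genes titled as bZIP were not called. bZIP68 gave 464, 572 and 567 in essp3 against 434, 411 and 401 in wild type, without overlap (log2 fold change 0.36, 95% interval 0.01 to 0.70, limma adjusted p = 0.116). bZIP16 averaged 168 ± 38.7 in essp3 and 148 ± 19.1 in wild type (0.16, adjusted p = 0.718), with overlapping arrays.

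The title rule leaves out 10 family genes on the array that carry other titles, most of them of clades A and G. Of these, 9 were tested and 1 was called, beside 28.4% of all tested probe sets. GBF2, a G-box binding factor, was the only one called: it gave 364, 422 and 436 in essp3 against 570, 659 and 627 in wild type (407 ± 38.6 against 619 ± 45.4, log2 fold change -0.60, limma adjusted p = 0.0115), and without wild-type replicate 2 its adjusted p was 0.0516. The abscisic acid factors ABF1 (-0.52, adjusted p = 0.0626), ABF3 (0.33, adjusted p = 0.236) and ABF4 (-0.11, adjusted p = 0.682) were not called; ABF1 passed without wild-type replicate 1 (-0.61, adjusted p = 0.0465). The median over the 9 was -0.15, close to the -0.16 of the genes titled bZIP.

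Clade A under the rule was hardly detected. ABI5 and EEL, factors of seed and seedling abscisic acid responses, DPBF2, active in seed maturation, and bZIP15 had no Present call. bZIP13, the only tested gene, averaged 253 ± 46.5 in essp3 and 296 ± 57.1 in wild type (log2 fold change -0.23, limma adjusted p = 0.477).

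All 27 genes listed for abscisic acid signalling were on the array and 21 were tested; 2 were higher and 3 lower in essp3, with a median log2 fold change of 0.11. The share called was 23.8%, beside 28.4% of all tested probe sets, so the genes that follow are examples and not a result about the list. Without essp3 replicate 1, 1 was higher. The lower genes were the kinase gene SNRK2.2 (3048 ± 140 in essp3, 5513 ± 632 in wild type, -0.85, limma adjusted p = 0.000198) and the receptor genes PYL6 (450 ± 129 in essp3, 983 ± 96.7 in wild type, -1.17, adjusted p = 0.00077) and PYL5 (1687 ± 103 in essp3, 2798 ± 381 in wild type, -0.72, adjusted p = 0.00138). RAB18, a dehydrin induced by the hormone, was higher (599 ± 56.2 in essp3, 334 ± 73.2 in wild type, 0.86, adjusted p = 0.0042).

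None of the factors of the unfolded protein response was called. bZIP17 and bZIP28 are membrane-bound and are released by proteolysis. bZIP17 averaged 339 ± 18.2 in essp3 and 347 ± 95 in wild type (log2 fold change -0.00, 95% interval -0.45 to 0.44, limma adjusted p = 0.994). bZIP28 averaged 796 ± 108 in essp3 and 822 ± 68.2 in wild type (-0.05, interval -0.38 to 0.27, adjusted p = 0.834). bZIP60, whose messenger RNA is spliced by IRE1, gave 960, 875 and 771 in essp3 against 866, 838 and 1609 in wild type, where replicate 3 stood apart (-0.28, interval -0.75 to 0.18, adjusted p = 0.357). bZIP49 had no Present call, and splicing was not measured.

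Of 23 genes of the unfolded protein response, 22 were on the array and 19 were tested; 1 was higher and 4 were lower (2 without wild-type replicate 2), with a median log2 fold change of -0.07. The share called was 26.3%, close to the 28.4% of all tested probe sets, so the genes that follow are examples and not a result about the list. IRE1A, the splicing sensor, was lower (474 ± 25.9 in essp3, 786 ± 132 in wild type, -0.72, limma adjusted p = 0.00482). So were the protein disulfide isomerase genes PDIL1-2 (604 ± 98.2 in essp3, 940 ± 54.2 in wild type, -0.65, adjusted p = 0.00707) and PDIL1-1 (1973 ± 93 in essp3, 2702 ± 186 in wild type, -0.45, adjusted p = 0.013; 0.0538 without wild-type replicate 2). The chaperone gene ERDJ3B was higher (1576 ± 11.9 in essp3, 1207 ± 30.4 in wild type, 0.39, adjusted p = 0.0317), and every fit that left out an array lost this call.

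In clade F, bZIP19, the zinc deficiency sensor, gave 592, 660 and 602 in essp3 against 691, 672 and 875 in wild type. The groups did not overlap, with essp3 replicate 2 and wild-type replicate 2 close together, and the gene was not called (log2 fold change -0.26, 95% interval -0.59 to 0.07, limma adjusted p = 0.23). bZIP24, known from salt stress, gave 105, 78.5 and 82 in essp3 against 78.4, 87.8 and 31.2 in wild type (0.55, adjusted p = 0.491), with a wide interval of -0.63 to 1.74.

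Of 10 zinc deficiency targets 5 were tested; 1 was higher, 3 were lower and ZIP1, a zinc transporter gene, was not called (240 ± 29.8 in essp3, 220 ± 9.73 in wild type, limma adjusted p = 0.718). These are 20% and 60% of only 5 tested genes, beside 14.4% and 13.9% of all tested probe sets. NAS4, a nicotianamine synthase gene, gave 637, 550 and 663 in essp3 against 117, 58.5 and 27.1 in wild type, where it was Present on 1 array (log2 fold change 3.43, limma adjusted p = 4.42e-05). As most wild-type signals were Absent, that size is uncertain: it was 2.80 with an offset of 32 and ran from 2.89 to 3.95 with an array left out. The metal transporter genes IRT3 (193 ± 45.8 in essp3, Present on 1 array, 622 ± 89.8 in wild type, -1.71, adjusted p = 5.49e-05) and ZIP5 (167 ± 28.3 in essp3, 347 ± 65.3 in wild type, -1.05, adjusted p = 0.00424) were lower. ZIP4 had no Present call in essp3, so it too entered the test through wild type alone, and no fold change is given (110 ± 51 in essp3, 236 ± 42 in wild type, adjusted p = 0.0176); 5 of 15 alternatives lost that call, among them the fits without essp3 replicate 1 (0.0597), essp3 replicate 2 (0.0676) and wild-type replicate 2 (0.0829).

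**Figure D4:**
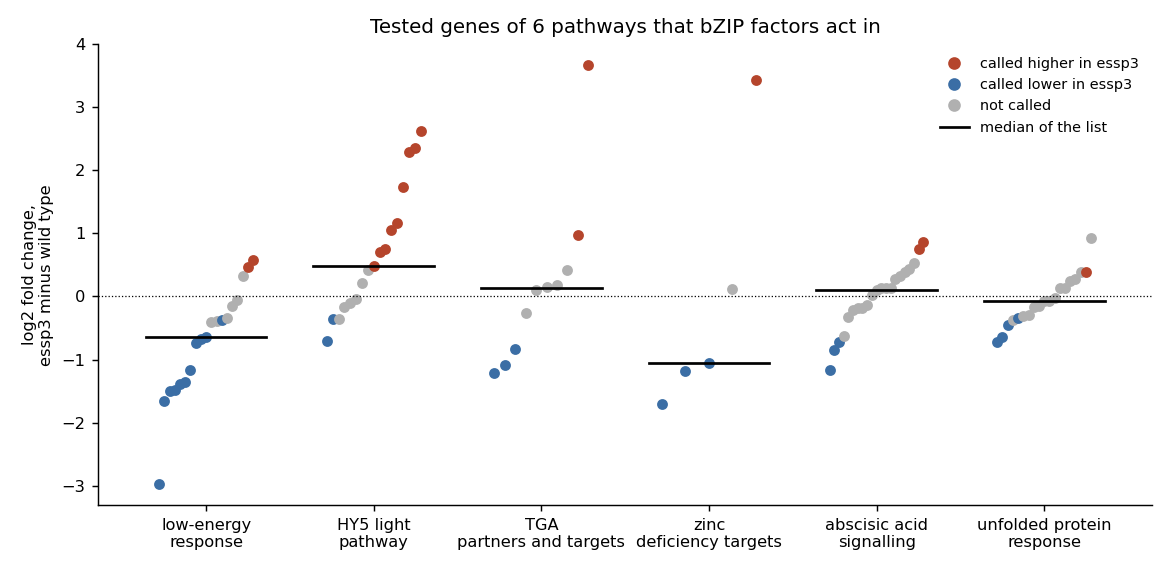
Log2 fold change, essp3 minus wild type, of each tested gene in the lists of 6 pathways in which bZIP factors act; each point is 1 gene, coloured by its call, and the line is the median of the list. Low-energy genes lie mostly below 0 (median -0.64), HY5 light pathway genes mostly above (median 0.49), and the other lists hold calls in both directions. All lists were chosen with earlier results of these data known.

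In clade E, bZIP61 (AT3G58120), whose group is known mostly from pollen and vascular studies, was called lower. It gave 785, 850 and 740 in essp3 against 933, 1250 and 1137 in wild type, without overlap. It was 1.39-fold lower in essp3 (792 ± 55.5 against 1107 ± 161, log2 fold change -0.48, SE 0.15, limma adjusted p = 0.0294). The call was among the least stable: 7 of 16 alternatives lost it, with an adjusted p of 0.0711, 0.054 and 0.0837 without essp3 replicates 1, 2 and 3, and of 0.129 and 0.0677 without wild-type replicates 2 and 3. Its relative bZIP34 had no Present call.

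Clade I, which includes vascular and cell-division factors, had 6 genes, all tested and none called in limma, beside 28.4% of all tested probe sets. bZIP52 gave 115, 140 and 49.2 in essp3 against 191, 205 and 148 in wild type, without overlap (log2 fold change -0.95, 95% interval -1.81 to -0.10, adjusted p = 0.0912). bZIP69 gave 441, 503 and 508 in essp3 against 592, 650 and 567 in wild type, also without overlap (-0.32, adjusted p = 0.139). bZIP18 gave 250, 361 and 506 in essp3 against 252, 271 and 193 in wild type, with essp3 replicate 1 inside the wild-type range (0.60, adjusted p = 0.0963; 0.85, adjusted p = 0.0261 without that array).

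The other clade I genes had overlapping groups. The log2 fold change was 0.22 for bZIP30 (584 ± 64.6 in essp3, 509 ± 116 in wild type), 0.05 for PosF21 (573 ± 87.3 in essp3, 558 ± 118 in wild type) and 0.05 for bZIP29 (753 ± 32.3 in essp3, 734 ± 111 in wild type). Both tested genes without a clade also overlapped: AT1G27000 averaged 2060 ± 394 in essp3 and 2067 ± 108 in wild type, and AT1G58110 averaged 459 ± 57.6 in essp3 and 521 ± 108 in wild type.

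The remaining 20 bZIP genes were not tested. Of these, 17 had no Present call, with signals from 0.732 to 136: ABI5, EEL, DPBF2, bZIP15, bZIP49, PAN, bZIP34, bZIP4, bZIP5, bZIP7, bZIP8, bZIP42, bZIP43, bZIP48, AT1G35490, AT5G04840 and AT5G07160. Within that range the groups overlapped for 14 and essp3 lay above wild type for 3; among all 7360 probe sets with no Present call, 11.8% did not overlap and 7.84% had essp3 above. The 3 were DPBF2 (34.8, 40.5 and 45.6 in essp3 against 9.15, 1.46 and 7.04 in wild type), bZIP4 (37.8, 43.8 and 19.1 against 1.96, 16.8 and 4.02) and the floral regulator PAN (5.81, 7.44 and 5.47 against 2.61, 2.19 and 3.02). All of these signals were called Absent, so no fold change is given.

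The last 3 untested genes were Present on 1 or 2 arrays. bZIP58 gave 65.3, 4.96 and 58.3 in essp3 against 26.1, 16.8 and 111 in wild type. bZIP6 gave 138, 126 and 128 in essp3 against 94.7, 141 and 116 in wild type. HEI10 gave 75.5, 136 and 125 in essp3 against 116, 109 and 166 in wild type. The groups overlapped for all 3.

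The authors' deposited table gave 12 of the 56 bZIP genes an unadjusted p under 0.05 (21.4%), against 22.2% of all 22746 probe sets. Of these, 6 were also called here. TGA7 (deposited p = 0.00732), bZIP69 (deposited p = 0.0224) and bZIP68 (deposited p = 0.0311) in the authors' deposited table were tested here and not called. DPBF2 (ratio 6.85, p = 0.000867), PAN (ratio 2.39, p = 0.00511) and bZIP4 (ratio 4.41, p = 0.0414) of the authors' deposited table had no Present call on any array. bZIP1 was called here but had a p of 0.065 in the authors' deposited table.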

How the data were processed

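MAS5 signal intensities, scaled per array to a common mean, and detection calls were deposited by the authors, per the file headers; the submitters' processing notes name MAS5 as well. Per the file headers, the deposited ratio sets the mean essp3 signal over that of wild type, and the deposited p-value is from an unpaired comparison; an equal-variance test on the signals gave it back to within 4.98e-08. The genome build is not given in the sources used, and no coordinates are printed. The series matrix held identical signals.

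Signals were log2-transformed without an offset or further scaling. Probe sets Present on at least 3 of 6 arrays were compared in R 4.3.3 by limma 3.58.1 (lmFit; eBayes, trend), two-sided; p-values were adjusted by Benjamini-Hochberg over 13626 probe sets. Log2 fold changes are essp3 minus wild type. The number of arrays limits the precision; an exact permutation test of 3 against 3 cannot go below 0.1, so none is given. The code was tested on simulated data.

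From each pathway list the 4 genes with the smallest adjusted p were named by rule. Members and lists were chosen with earlier results of these data known. Symbols came from RefSeq (TAIR10.1). Alternatives covered the filter, scaling, offset, variance model, replicate block, test, value table and each array left out.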

Additional observations from a re-analysis of the deposited data

How the results depend on the processing

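With 3 arrays of each genotype, these results describe the 6 samples, and signals below detection limit 20 of the 56 bZIP genes. Calls of the 7 bZIP genes were kept in 89 of 110 recomputed values and lost in 21, with no change of direction; changes of over 1.5 times are given beside the genes. Of 29 tested genes not called, 7 of 460 recomputed values passed the threshold. These totals, and the counts of alternatives given beside the genes, include the series matrix. Its signals were identical, so that alternative could not change a call. Where a count fell, the cause was not tested, except that a stricter filter tests fewer genes.

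With Present calls on all 6 arrays required, 3 bZIP genes were lower, and the lists gave 5 HY5 light pathway genes higher and 1 TGA list gene higher. Of the zinc list only 1 gene was then tested, with 0 called higher and 1 lower. With no detection filter (7 probe sets with a signal of 0 left out), 1 HY5 light pathway gene was lower and 1 TGA list gene higher. Without the trend, 3 bZIP genes and 1 HY5 light pathway gene were lower, and 0 unfolded protein response and 1 low-energy gene higher. With array weights 2 unfolded protein response genes were higher. The unmoderated test on linear signals called 1694 probe sets. Of the 36 tested bZIP genes it called 1 higher and 0 lower, where limma called 5 lower. Named list genes that lost their calls in it included BCAT2, KIN10, NPR3, PR1, PYL5, RAB18, IRE1A, PDIL1-2 and ZIP5. Without adjustment, the same test gave 12 of all 56 bZIP genes a p under 0.05 in either direction, of which 3 were not tested here. With adjustment, it called 2 unfolded protein response genes lower, 0 low-energy genes higher and 5 lower, 5 HY5 light pathway genes higher, 0 abscisic acid genes higher, 1 TGA list gene higher and 1 lower, and 1 zinc gene lower.

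Leaving out each array in turn gave 2679 to 3638 calls over all probe sets, 2 to 3 bZIP genes higher and 2 to 5 lower. The lists gave 0 to 2 higher and 2 to 3 lower for the unfolded protein response, 1 to 2 and 10 to 13 for low energy, 5 to 10 and 1 to 3 for HY5 light, 1 to 3 and 3 to 3 for abscisic acid, 1 to 2 and 2 to 3 for TGA, and 1 to 1 and 2 to 3 for zinc.

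Changes of sign were seen only among genes that were not called. The log2 fold change of bZIP17 was 0.00 with median centring and 0.13 with array weights. With an array left out it ran from -0.16 to 0.21 for bZIP17, -0.16 to 0.03 for bZIP28, -0.12 to 0.05 for bZIP63, -0.38 to 0.01 for TGA4, -0.10 to 0.20 for PosF21, -0.06 to 0.16 for bZIP29, -0.45 to 0.02 for bZIP60, -0.21 to 0.03 for bZIP44 and -0.17 to 0.09 for AT1G27000.

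Deviations of arrays with the same replicate number correlated at 0.02, 0.02 and 0.03, so the numbers were not taken as pairs; each essp3 array did correlate best with its own number. With the replicate block 3737 probe sets were called, with 3 bZIP genes higher and 5 lower; HY5 (log2 fold change 0.90, limma adjusted p = 0.048) and ABF1 (adjusted p = 0.0484) then passed.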
